A study of Homo sapiens with 13 samples.

Results

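The S100 and epidermal differentiation genes of chromosome 1 were taken as the protein-coding genes of GENCODE release 44 on hg19 whose symbols start with S100A, SPRR or LCE followed by a number, together with FLG, FLG2, HRNR, RPTN, TCHH, TCHHL1, CRNN and IVL. This gave 54 genes of the 19881 protein-coding genes on nuclear chromosomes: 16 S100A genes, 11 SPRR genes, 19 LCE genes, 7 S100 fused-type genes and IVL. They lie in one stretch, chr1:151955391-153604515, that spans 1.65 Mb and is called the complex here; 63 protein-coding genes have their TSS in it. The study mapped chromatin in MDA-MB-231 cells, an established line from a triple-negative breast cancer of the basal b type, grown in standard medium with no treatment, gene change or second condition. Histone marks H3K4me1, H3K27ac and H3K4me3, the RNA polymerase Pol II and CTCF were each immunoprecipitated in 2 replicates. The acetyltransferases p300/CBP gave 1 library, for which the paper states that replicate samples had been pooled. Each antibody gave a single list of peak positions made after replicates were merged, so the lists hold no depth, no height and no spread between replicates. A peak present in all cells cannot be told apart from one present in some of them.

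S100 proteins are small calcium-binding proteins that act through partners such as annexins, and several are released and signal through receptors. The SPRR, LCE and involucrin proteins are precursors of the cornified envelope, the cross-linked protein shell of the outermost skin cells, and the fused-type proteins, filaggrin among them, combine an S100 domain with long repeats and bind keratin filaments or the envelope. H3K4me3 with H3K27ac and Pol II marks active promoters, H3K4me1 marks enhancers and promoter flanks, p300/CBP sits at many active enhancers, and CTCF binds insulators and loop anchors.

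The cell line was checked against its markers. The TSS windows of VIM, CD44, EGFR and AXL, genes of mesenchymal-like breast cancer cells, held H3K27ac, H3K4me3 and Pol II. Those of ESR1, GATA3, CDH1, EPCAM, KRT5, KRT1 and KRT10 held none of the 6 lists, PGR held H3K4me3 only and KRT14 held H3K4me1 only. The receptor gene ERBB2 and the luminal gene FOXA1 held H3K27ac, H3K4me3 and Pol II. TP63, which encodes the master regulator of stratified epithelia, held H3K4me1 and H3K27ac without H3K4me3 or Pol II.

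In MDA-MB-231 cells the complex was split. Marks of active promoters were found at S100A genes at its ends and at no SPRR, LCE, fused-type or involucrin gene. With windows of 10 kb, TCHH gained H3K27ac, H3K4me3 and Pol II and RPTN gained H3K27ac. Each gene was read over a window of 3 kb centred on the TSS of its canonical transcript, and 1 bp shared with a peak was counted as presence. H3K27ac was present at 11 of the 54 windows, or 20.4% (95% Wilson interval 11.8% to 32.9%), against 61.5% of all protein-coding windows. H3K4me3 was present at 8 windows, or 14.8% (7.70% to 26.6%), against 62.7%. Pol II was present at 10 windows, or 18.5% (10.4% to 30.8%), against 58.4%. H3K4me1 was present at 16 windows, or 29.6% (19.1% to 42.8%), against 59.4%. CTCF was present at 3 windows, or 5.56% (1.91% to 15.1%), against 17.6%. For these lists the interval lies below the share of all genes. p300/CBP was present at 1 window, or 1.85% (0.328% to 9.77%), and its interval includes the 0.704% of all genes. None of the 6 lists was present at 38 windows, or 70.4% (57.2% to 80.9%), against 28.0%. The intervals cover counting error only, and neighbouring genes share peaks, so the 54 windows are not independent: the 11 windows with H3K27ac rest on 10 H3K27ac peaks, and the 16 with H3K4me1 on 12 H3K4me1 peaks.

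**Figure D1:**
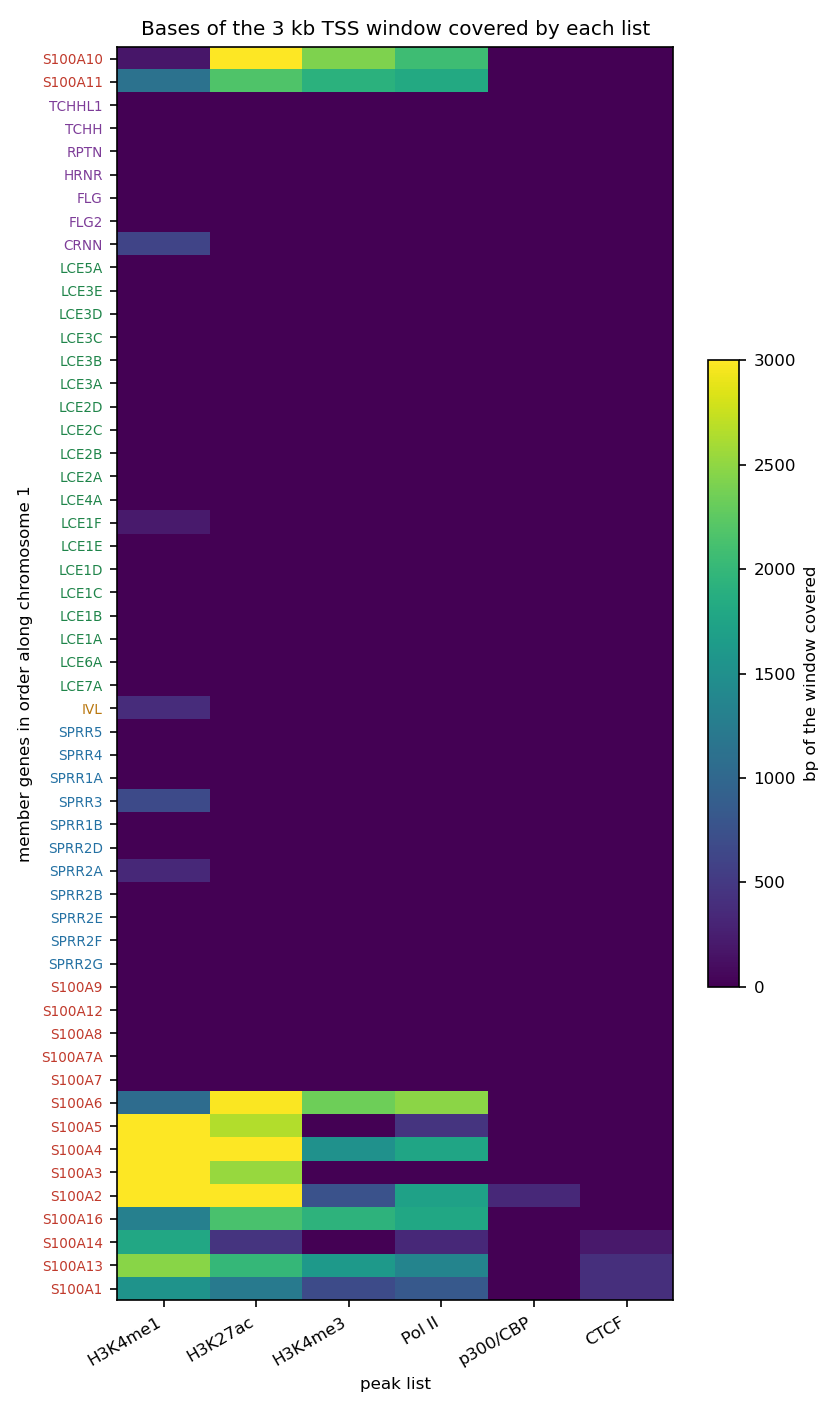
Bases of the 3 kb TSS window covered by each of the 6 peak lists, with the 54 genes in order along chromosome 1 from top to bottom, gene names coloured by family and colour from 0 to 3000 bp. The 11 windows with H3K27ac are S100A genes at the top and bottom of the plot, and in the 43 rows between them H3K4me1 at 5 genes is the only signal.

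All 11 genes with H3K27ac also held H3K4me1, so both were present at 20.4% of the 54, against 52.4% of all genes. H3K27ac, H3K4me3 and Pol II were together at 8 of the 54, or 14.8%, against 56.3% of all genes. H3K27ac without H3K4me3 was seen at 3 of the 54, S100A5, S100A3 and S100A14, or 5.56% (1.91% to 15.1%), against 1.40%. By family, H3K27ac was present at 11 of 16 S100A genes, or 68.8% (44.4% to 85.8%), at 0 of 11 SPRR genes (0% to 25.9%), at 0 of 19 LCE genes (0% to 16.8%) and at 0 of 7 fused-type genes (0% to 35.4%).

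The first active block holds S100A10 and S100A11 and lies at the end of the complex nearer the centromere. S100A10, also called p11, forms a tetramer with annexin A2, and its gene lies on the minus strand at chr1:151955391-151966335. One H3K27ac peak of 8350 bp, chr1:151959701-151968051, covered all 3000 bp of its window, and 1.03% of the 41034 H3K27ac peaks were at least as wide. The H3K4me3 peak there was 5900 bp wide, a width reached by 1.26% of the H3K4me3 list, and Pol II covered 2066 bp of the window. H3K4me1 covered 184 bp and began 1316 bp from the TSS. The bases before the S100A10 TSS are shown because they are among the few CpG-rich ones in the complex, with CpG dinucleotides in capitals (24 in 250 bases, minus strand, GRCh37, chr1:151966336-151966585).
S100A10 upstream: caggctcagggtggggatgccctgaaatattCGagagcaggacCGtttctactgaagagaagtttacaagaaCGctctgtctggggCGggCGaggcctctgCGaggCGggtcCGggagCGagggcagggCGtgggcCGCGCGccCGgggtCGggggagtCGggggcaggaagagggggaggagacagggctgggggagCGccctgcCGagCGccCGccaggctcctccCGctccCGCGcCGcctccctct

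S100A11, a partner of annexin A1, lies on the minus strand at chr1:152004982-152020383. H3K27ac covered 2171 bp, H3K4me3 1921 bp, Pol II 1821 bp and H3K4me1 1129 bp of its window. A second group of peaks lay at another TSS of S100A11. There an H3K27ac peak of 2750 bp overlapped an H3K4me3 peak of 2000 bp and a Pol II peak of 1200 bp. The near edge of this H3K27ac peak lay 9.52 kb from the canonical TSS. Both TSSs of S100A11 thus held the same 3 lists.

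The second block runs from S100A6 to S100A1. S100A6, or calcyclin, binds CACYBP and lies at chr1:153507075-153508720 on the minus strand. H3K27ac covered 2984 bp, Pol II 2484 bp, H3K4me3 2334 bp and H3K4me1 1066 bp of its window, and the H3K27ac peak, 5300 bp wide, covered 100% of the gene body. S100A4, or metastasin, interacts with non-muscle myosin and lies at chr1:153516089-153522612 on the minus strand. H3K27ac and H3K4me1 each covered 3000 bp of its window, Pol II covered 1769 bp and H3K4me3 1519 bp. Both genes held all 3 lists of an active promoter.

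S100A5 and S100A3, the neighbours on either side of S100A4, were marked differently. At S100A5 (chr1:153509623-153514241) H3K4me1 covered 3000 bp, H3K27ac 2650 bp and Pol II 450 bp of the window, with no H3K4me3 peak nearer than 3241 bp. At S100A3 (chr1:153519805-153521734), whose protein is abundant in hair cuticle, H3K4me1 covered 3000 bp and H3K27ac 2533 bp, and the nearest H3K4me3 and Pol II peaks lay 3.43 kb and 3.18 kb from the TSS. S100A3 was thus the only one of the 11 genes with H3K27ac that held neither H3K4me3 nor Pol II. Its H3K27ac peak, chr1:153520701-153523351, also held another TSS of S100A4, so positions cannot assign the peak to S100A3. A single H3K4me1 peak of 18150 bp, chr1:153508901-153527051, reached the windows of S100A6, S100A5, S100A4 and S100A3, and 0.213% of the 88319 H3K4me1 peaks were at least as wide.

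S100A2, a gene of basal keratinocytes, lies at chr1:153533584-153540366 on the minus strand and was the only one of the 54 with p300/CBP at its window. H3K27ac and H3K4me1 each covered 3000 bp, Pol II 1719 bp and H3K4me3 750 bp, the last in 2 short peaks of 550 bp and 200 bp. The p300/CBP peak, chr1:153538951-153539301, was 350 bp wide and lay 0.631 kb upstream of the canonical TSS, inside the H3K27ac peak of 5600 bp. It contained another annotated TSS of S100A2, so it also lay at an alternative start of the gene. A further H3K4me3 peak, 850 bp wide, contained yet another S100A2 TSS, and its near edge lay 1.93 kb from the canonical one. The upstream bases are shown for the AP-1 site at position -52, where TGANTCA on either strand is set in capitals (minus strand, GRCh37, chr1:153538321-153538570). Positions give the first base of the match, counted back from the TSS. AP-1 is the dimer of Fos and Jun family proteins that binds sites of this kind. The paper gives its consensus as TGAG/CTCA, so TGANTCA also takes in variants with A or T as the central base.
S100A2 upstream: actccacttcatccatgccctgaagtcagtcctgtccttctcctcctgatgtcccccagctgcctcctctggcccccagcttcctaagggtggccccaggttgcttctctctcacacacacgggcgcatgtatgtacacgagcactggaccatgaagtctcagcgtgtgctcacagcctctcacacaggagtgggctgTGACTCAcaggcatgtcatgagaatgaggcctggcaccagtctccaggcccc

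The last 4 genes of the block differed among themselves. S100A16 (chr1:153579362-153585621, minus strand) held the widest H3K4me3 peak of the complex, 6200 bp, a width reached by 1.04% of that list, under an H3K27ac peak of 6700 bp and a Pol II peak of 10250 bp. H3K27ac covered 2138 bp, H3K4me3 1938 bp, Pol II 1788 bp and H3K4me1 1312 bp of its window. S100A14 (chr1:153586731-153589462, minus strand) had the fewest bases of H3K27ac among the 11. There H3K27ac covered 450 bp, Pol II 350 bp and CTCF 200 bp, and H3K4me3 was not listed. The H3K27ac peak of 550 bp lay 1.05 kb from the TSS. H3K4me1 covered 1800 bp. S100A13 (chr1:153591263-153603836, minus strand), which takes part in the release of a fibroblast growth factor, and S100A1 (chr1:153600402-153604515, plus strand), best known from heart muscle, have TSSs 929 bp apart and shared their peaks. The shared H3K27ac peak was 2000 bp wide, the H3K4me3 peak 1700 bp, the Pol II peak 1350 bp and the CTCF peak 400 bp. H3K27ac covered 2000 bp of the S100A13 window and 1241 bp of the S100A1 window, and H3K4me3 covered 1620 bp and 691 bp. The bidirectional pair cannot be told apart from these lists.

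**Figure D2:**
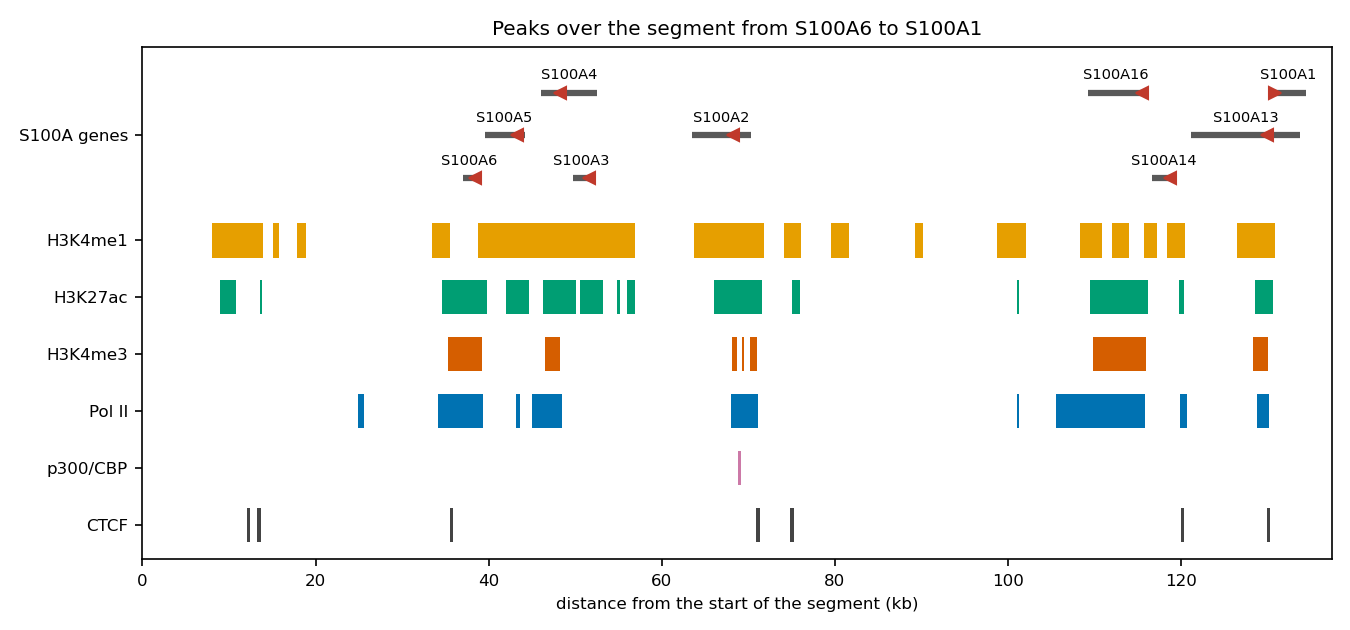
Peaks of the 6 lists over the segment from S100A6 to S100A1, with distance from the start of the segment in kb on the horizontal axis, 1 row for each list and grey bars for genes with a red arrowhead at the canonical TSS pointing along the gene. H3K4me1 runs on over S100A5, S100A4 and S100A3 while H3K4me3 is seen at S100A4 only among these 3, and the 1 p300/CBP peak lies at S100A2.

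The position of H3K4me1 split the 11 genes. At S100A10, S100A11, S100A6 and S100A16 the TSS itself was free of H3K4me1 and the nearest peak began 1316, 371, 434 and 188 bp away, in that order. At S100A5, S100A4, S100A3, S100A2, S100A14, S100A13 and S100A1 the H3K4me1 peak covered the TSS. The first 4 genes held H3K4me3 over at least 1921 bp of the window and the other 7 over at most 1620 bp.

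The other 5 S100A genes, S100A9, S100A12, S100A8, S100A7A and S100A7, held none of the 6 lists. S100A8 and S100A9 together form calprotectin, a protein of myeloid cells and inflamed skin, S100A12 is a myeloid protein, and S100A7 is psoriasin. Their TSSs lay 45.9 to 149 kb from the nearest H3K27ac peak, 61.9 to 165 kb from the nearest Pol II peak and 2.03 to 19.8 kb from the nearest CTCF peak. A small H3K4me3 peak of 250 bp, with no H3K27ac or Pol II, lay 8996 bp from S100A7A. The bases before S100A8 are shown as an example of the TATA-box promoters found at 26 of the 43 genes without H3K27ac, with TATAAA in capitals at position -29 (minus strand, GRCh37, chr1:153363550-153363799).
S100A8 upstream: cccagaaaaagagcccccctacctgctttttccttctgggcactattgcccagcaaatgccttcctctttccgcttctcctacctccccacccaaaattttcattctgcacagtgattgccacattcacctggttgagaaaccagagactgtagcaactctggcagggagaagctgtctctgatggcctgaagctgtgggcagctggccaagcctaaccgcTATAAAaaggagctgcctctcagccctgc

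H3K4me1 was the only list at 5 windows, or 9.26% (4.02% to 19.9%), against 4.30% of all genes. The windows were those of CRNN, LCE1F, IVL, SPRR3 and SPRR2A. CRNN, which encodes cornulin of the upper oesophageal and skin epithelium, had 612 bp covered by a peak of 2950 bp that lay 0.889 kb from its TSS. LCE1F had 215 bp covered by a peak of 400 bp. IVL, which encodes involucrin, a scaffold of the envelope, had 379 bp covered by a peak of 1000 bp that began upstream and ended 1.12 kb from the TSS. SPRR3 had 676 bp covered and SPRR2A 350 bp, by peaks of 750 bp and 350 bp. Apart from CRNN these peaks were narrower than the median of the H3K4me1 list, 1200 bp, and keeping only the wider peaks left CRNN as the single gene of the 5. IVL lay 163 kb from the nearest H3K27ac peak and 614 kb from the nearest Pol II peak.

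The remaining envelope genes held no peak at their windows. These were 18 of 19 LCE genes, 9 of 11 SPRR genes and 6 of 7 fused-type genes. Among the 9 SPRR genes the nearest H3K27ac peak lay 201 to 368 kb from the TSS and the nearest Pol II peak 372 to 575 kb. Among the 18 LCE genes these distances were 5.57 to 114 kb and 321 to 663 kb. Among the 6 fused-type genes they were 3.50 to 111 kb and 4.52 to 170 kb, so the fused-type genes lay nearest to active chromatin. FLG, the filaggrin gene, had an H3K4me1 peak of 3200 bp at 1.69 kb from its TSS, just beyond the window, and its nearest H3K27ac peak lay 111 kb away. FLG2 lay 29.9 kb from the nearest H3K4me1 peak and HRNR 4.63 kb.

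**Figure D3:**
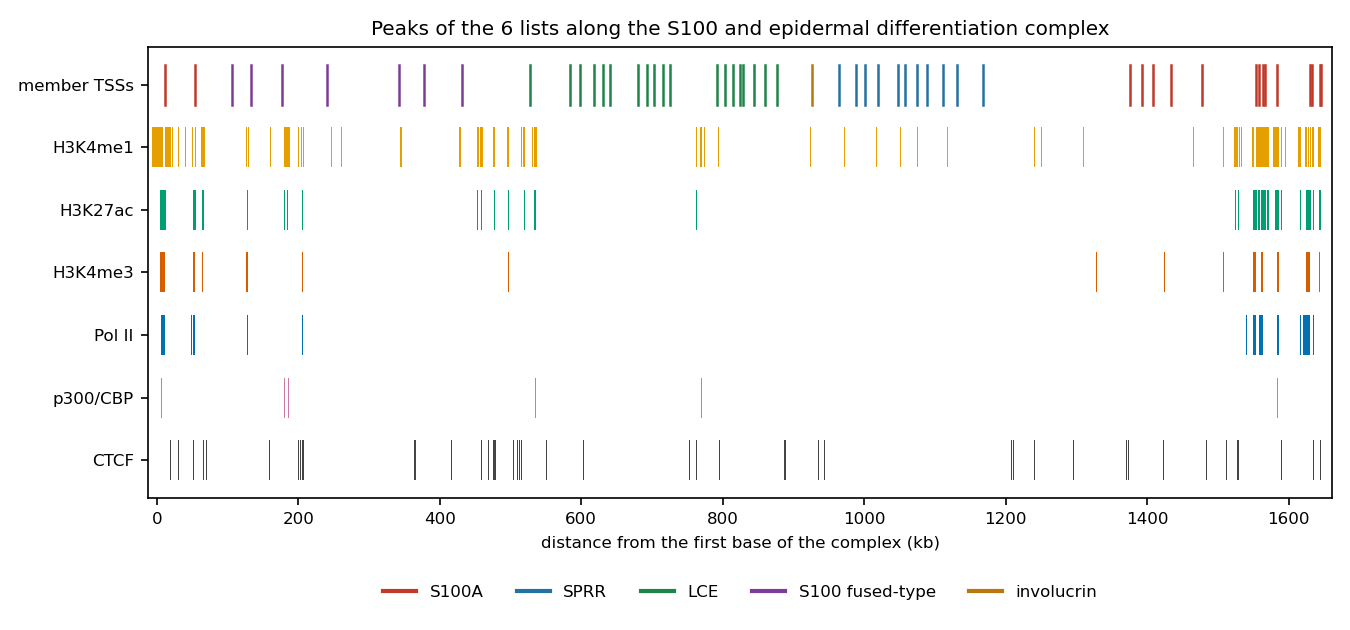
Positions of the peaks of the 6 lists and of the 54 TSSs along the complex, with distance from the first base in kb on the horizontal axis; TSS ticks are coloured by family, and peaks narrower than 1.2 kb are drawn 1.2 kb wide. Pol II is listed at both ends and at 2 sites near the fused-type genes, with 1330 kb between without a Pol II peak.

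The lists differed in how far they left the complex empty. The longest stretch without a peak was 1330 kb for Pol II and held 40 of the 54 TSSs, from HRNR to S100A7. It was 830 kb for H3K4me3 with 31 TSSs from LCE5A to SPRR2G, 814 kb for p300/CBP, and 761 kb for H3K27ac with 25 TSSs from LCE1F to S100A7. For H3K4me1 it was 201 kb, with the 10 TSSs from LCE3E to LCE4A, and for CTCF 157 kb, with the 6 TSSs from SPRR2D to SPRR2G. The lists differ in length and threshold, so these stretches describe each list on its own.

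The complex was cut into 7 segments at midpoints between genes. H3K27ac covered 18.7% of the segment from S100A10 to S100A11 and 25.2% of that from S100A6 to S100A1. It covered 1.63% from TCHHL1 to CRNN, 1.39% from LCE5A to LCE7A and 0% of the segments from IVL to SPRR2G, from LELP1 to PGLYRP4 and from S100A9 to S100A7. The share was 3.74% over the whole complex and 3.19% over chromosome 1. The mean over the complex was thus close to that of the chromosome, with high cover at the ends and low cover between. H3K4me1 covered 31.1% and 42.2% of the end segments, 8.16% from TCHHL1 to CRNN, 4.74% from LCE5A to LCE7A and 1.66% from IVL to SPRR2G, against 7.46% of chromosome 1. In the 1430 kb from TCHHL1 to S100A7, which hold 43 of the 54 genes, 39 H3K4me1, 11 H3K27ac, 6 H3K4me3, 2 Pol II and 4 p300/CBP peaks were listed.

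The complex held 56 CTCF peaks, or 34.0 per Mb, against 26 and 28 peaks in the 1 Mb before and after it and 16.0 per Mb over chromosome 1. The stretch from TCHHL1 to S100A7 held 43 of them. The end segments held the most per Mb, 72.2 from S100A10 to S100A11 and 52.1 from S100A6 to S100A1, from 6 and 7 peaks. The segment from IVL to SPRR2G held the fewest, with 3 peaks or 10.3 per Mb, and the other 4 held 32.8 to 45.4 per Mb. The core of the CTCF motif (CC, 3 free bases, AG, 2 free bases, GGC) was found on either strand in 20 of the 56 peaks, or 35.7%, against 37.9% of all 39596 CTCF peaks, with 9 on the plus strand and 11 on the minus strand. Examples are shown with the core in capitals, each read 5′ to 3′ on the strand of the motif (GRCh37): the pair on either side of a marked FLG-AS1 TSS and the site under the H3K27ac of S100A2.
FLG-AS1 first site, chr1:152161235-152161258, plus strand: gacgggCCAGCAGGGGGCgcactt
FLG-AS1 second site, chr1:152162478-152162501, plus strand: gagttgCCAGCAGGTGGCcccaga
S100A2 site, chr1:153541176-153541199, minus strand: ccttagCCACCAGAGGGCacgaag

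**Figure D4:**
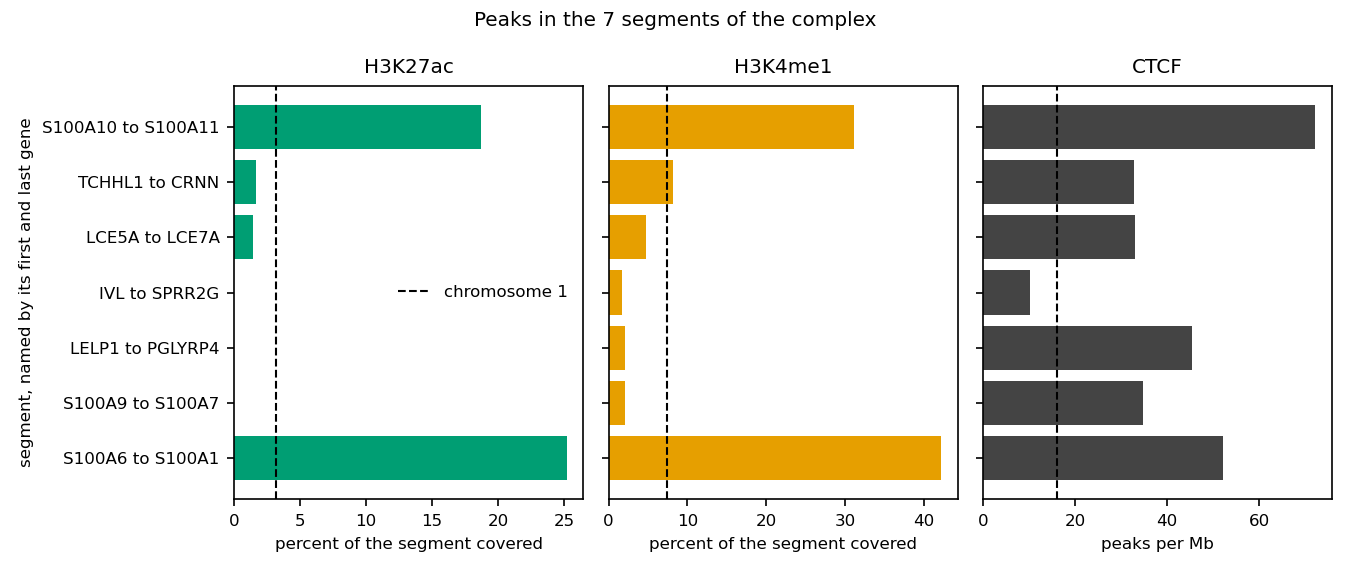
Percent of each of the 7 segments covered by H3K27ac and by H3K4me1, and CTCF peaks per Mb, with the level of chromosome 1 as a dashed line. H3K27ac exceeds the chromosome only in the 2 end segments, and CTCF exceeds it in all segments except the one from IVL to SPRR2G.

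Candidate active enhancers (cAEs) were H3K4me1 regions that shared at least 1 bp with H3K27ac and touched no window at the canonical TSS of a protein-coding gene, and candidate inactive enhancers (cIEs) were those without H3K27ac. The complex held 21 cAEs, or 12.7 per Mb, and 29 cIEs, or 17.6 per Mb, against 10.4 and 21.0 per Mb on chromosome 1. Of the 21 cAEs, 11 overlapped H3K4me3, or 52.4% (32.4% to 71.7%), against 34.2% of all cAEs. Pol II overlapped 8, or 38.1% (20.8% to 59.1%), against 21.0%, CTCF 8, or 38.1% (20.8% to 59.1%), against 16.4%, and p300/CBP 3, or 14.3% (4.98% to 34.6%), against 20.6%. The intervals for H3K4me3, Pol II and p300/CBP include the share of all cAEs, and that for CTCF lies above it. Of the 29 cIEs, 2 held H3K4me3 (6.90%, against 3.19% of all cIEs), 1 held p300/CBP (3.45%, against 1.26%), 4 held CTCF (13.8%, against 7.57%) and 0 held Pol II (0% to 11.7%, against 3.77%). Some of the 21 lay at or beside other TSSs of S100A11 and S100A16. When windows at all TSSs of basic transcripts were excluded, 18 were left. The other marked TSS of S100A11 was not among these, so the cAE chr1:152021401-152023951 beside it stayed counted. Counts of cAEs depend on the overlap asked for: 7 were left when H3K27ac had to cover at least 50% of the H3K4me1 region, and 10 when only the wider peaks were kept.

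The cAEs were placed unevenly. Of the 21, 4 lay in the S100A10 to S100A11 segment, 7 from TCHHL1 to CRNN, 4 from LCE5A to LCE7A, 6 from S100A6 to S100A1 and 0 in the remaining 3 segments, where IVL, the SPRR genes and S100A7 to S100A9 lie. The cIEs, in contrast, were listed in all 7 segments, with 2 to 8 in each. In the first segment the widest cAE was chr1:151948451-151964001, 15550 bp, which ran into S100A10 and began before the complex. The other 3 lay at S100A11 (chr1:152005001-152006951, chr1:152018501-152020201 and chr1:152021401-152023951), and each of the 4 overlapped H3K4me3.

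Near the fused-type genes the 7 cAEs fell at 4 places. Inside the large exon of TCHH, which encodes trichohyalin of the hair follicle sheath, chr1:152082051-152082751 and chr1:152084201-152085001 lay on either side of an H3K27ac peak of 1850 bp, with an H3K4me3 peak of 2250 bp and a Pol II peak of 650 bp, 3.67 kb downstream of the annotated TSS. Next to RPTN, the repetin gene, chr1:152134851-152143751 was 8900 bp wide and held 2 p300/CBP peaks with no H3K4me3 or Pol II. It lay 3.15 kb from the RPTN TSS and contained a TSS of the long non-coding FLG-AS1. At 29.7 kb from RPTN, chr1:152161451-152164151 held H3K4me3, Pol II and CTCF at another FLG-AS1 TSS. The other 3 lay 21.6 to 45.6 kb from CRNN (chr1:152408351-152410951, chr1:152412601-152416801 and chr1:152432301-152433401). Both FLG-AS1 TSSs are those of a non-coding gene, which is no member of the 54, and TCHH and RPTN held no peak at their own TSS windows.

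The 4 cAEs around the LCE genes were chr1:152451001-152453351, chr1:152472551-152476551, chr1:152488651-152493051 and chr1:152717301-152718801. The first 3 lay 29.9, 6.73 and 5.37 kb from LCE5A and the last lay 28.8 kb from LCE1F. In the last segment chr1:153478151-153484001 lay 24.5 kb from S100A6 with 2 CTCF peaks, chr1:153503501-153505651 lay 2.82 kb from S100A6, and chr1:153544201-153546151 lay 5.88 kb from S100A2. The other 3 were at S100A16 (chr1:153568851-153572151, chr1:153578401-153580901 and chr1:153582101-153584101), 13.5, 4.71 and 1.51 kb from its TSS.

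The complex held 6 p300/CBP peaks, 3.64 per Mb against 5.00 per Mb on chromosome 1. Of the 6, 5 overlapped H3K27ac, and the exception lay 22.6 kb from LCE1F in H3K4me1 alone. The AP-1 motif TGANTCA was found in 4 of the 6, against 28.1% of all p300/CBP peaks. Wider peaks hold more matches: the share was 24.9% for all peaks of 150 bp, 37.9% at 200 bp, 50.8% at 250 bp, 54.5% at 300 bp and 60.2% at 350 bp, and the 6 peaks span these widths. The 6 sequences are shown with AP-1 matches in capitals, since p300/CBP carries no DNA-binding specificity of its own (plus strand, GRCh37). The sites also differed in other lists, with Pol II overlapping only the peaks at S100A10 and S100A2. The S100A2 peak holds a match at 153539170 and another at 153539208, and the bases are given up to the first annotated exon, which contains the second match.
S100A10 intron, chr1:151960951-151961150: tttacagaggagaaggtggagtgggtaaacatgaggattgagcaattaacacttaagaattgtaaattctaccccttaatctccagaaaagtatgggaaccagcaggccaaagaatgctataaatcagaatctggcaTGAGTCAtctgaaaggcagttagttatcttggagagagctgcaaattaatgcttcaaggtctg
RPTN side of the 8900 bp region, chr1:152135501-152135650: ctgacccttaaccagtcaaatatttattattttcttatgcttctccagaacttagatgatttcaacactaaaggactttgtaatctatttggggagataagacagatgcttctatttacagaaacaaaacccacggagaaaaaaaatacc
FLG-AS1 TSS in the same region, chr1:152140451-152140700: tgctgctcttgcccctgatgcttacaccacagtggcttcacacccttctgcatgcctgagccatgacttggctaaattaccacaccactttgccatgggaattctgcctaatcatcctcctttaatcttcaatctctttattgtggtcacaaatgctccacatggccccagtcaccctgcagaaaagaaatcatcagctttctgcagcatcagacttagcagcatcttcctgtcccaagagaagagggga
LCE5A, 6.47 kb from its TSS, chr1:152489751-152489900: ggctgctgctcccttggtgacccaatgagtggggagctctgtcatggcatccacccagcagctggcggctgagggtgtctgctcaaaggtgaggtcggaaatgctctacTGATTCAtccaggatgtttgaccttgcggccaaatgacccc
LCE1F, 22.6 kb from its TSS, chr1:152724751-152725050: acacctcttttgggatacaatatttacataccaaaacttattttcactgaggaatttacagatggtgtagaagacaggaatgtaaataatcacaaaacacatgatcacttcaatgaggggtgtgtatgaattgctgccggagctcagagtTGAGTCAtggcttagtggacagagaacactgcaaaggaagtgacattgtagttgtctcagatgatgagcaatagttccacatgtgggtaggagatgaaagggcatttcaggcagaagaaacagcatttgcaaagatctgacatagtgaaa
S100A2, chr1:153538951-153539177: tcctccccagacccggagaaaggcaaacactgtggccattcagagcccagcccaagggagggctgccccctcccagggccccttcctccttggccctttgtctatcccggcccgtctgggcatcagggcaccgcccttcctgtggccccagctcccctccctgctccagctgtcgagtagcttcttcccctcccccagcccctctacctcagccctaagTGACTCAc

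Both peaks without a match lay in the wide region beside RPTN. The other 4, at S100A10, LCE5A, LCE1F and S100A2, each held at least 1. A match is a description of the letters and not evidence of a bound factor.

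Promoter sequences set the families apart by features that the choice of genes did not use. In the 300 bases from 250 before to 50 after the TSS, the ratio of observed to expected CpG had a median of 0.12 (0.00 to 0.25) over the 43 genes without H3K27ac, against 0.37 over all genes without H3K27ac. Over the 11 genes with H3K27ac it had a median of 0.21 and ran from 0.05 to 0.87, against a median of 0.86 over all genes with H3K27ac and 0.78 over all genes. S100A6 at 0.87, S100A10 at 0.84 and S100A11 at 0.78 stood apart from the other 8, whose highest was S100A13 at 0.37. S100A16, with 0.12, held the widest H3K4me3 peak with a CpG ratio no higher than the median of the 43 genes without H3K27ac.

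A TATA box (TATAAA on the strand of the gene, starting 40 to 20 bases before the TSS) was found at 28 of the 54 promoters, or 51.9%, against 3.90% of all genes. It was found at 26 of the 43 genes without H3K27ac, or 60.5%, against 7.16% of all genes without H3K27ac, and at 2 of the 11 with it, S100A4 and S100A13, or 18.2%, against 1.87% of all genes with H3K27ac. By family it was present at 10 of 11 SPRR genes, 5 of 7 fused-type genes, 6 of 19 LCE genes, 6 of 16 S100A genes and IVL. In the genes with a match it began between -33 and -28. Anywhere in the 300 bases and on either strand, TATAAA was found at 32 of the 54, or 59.3%, against 9.63% of all genes. Members of a family arose by duplication and share sequence, so these promoters are not independent of each other.

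The AP-1 motif was found in 19 of the 54 promoters, or 35.2%, against 5.41% of all genes. It was present at 6 of 7 fused-type genes, 8 of 11 SPRR genes, 4 of 16 S100A genes, 0 of 19 LCE genes and IVL. The motif was found at 16 of the 43 genes without H3K27ac, or 37.2%, against 7.67% of all genes without it, and at 3 of the 11 with it, or 27.3%, against 3.99%. The Fos and Jun genes that were read were themselves marked: FOS, FOSL1, FOSL2, JUN, JUNB and JUND all held H3K27ac, H3K4me3 and Pol II at their windows. FOSB was not read. Pol II covered 350 bp of the FOS window. A marked window does not show that the protein is present. The paper reports Fos and FosB as undetectable in this line. It reports Fra-1, encoded by FOSL1, as strongly overexpressed, and Fra-2, encoded by FOSL2, as present at a much lower level. Promoters of 4 genes without H3K27ac are shown because they carry both motifs, an AP-1 pair or neither, with AP-1 and TATAAA in capitals (GRCh37, strand of the gene). IVL lies on the plus strand (chr1:152880772-152881021) and has AP-1 at -123 and the TATA box at -30. FLG lies on the minus strand (chr1:152297716-152297965) and has them at -79 and -30. SPRR1B lies on the plus strand (chr1:153003429-153003678) and has AP-1 at -141 and -111. LCE3A lies on the minus strand (chr1:152595580-152595829) and has neither.
IVL upstream: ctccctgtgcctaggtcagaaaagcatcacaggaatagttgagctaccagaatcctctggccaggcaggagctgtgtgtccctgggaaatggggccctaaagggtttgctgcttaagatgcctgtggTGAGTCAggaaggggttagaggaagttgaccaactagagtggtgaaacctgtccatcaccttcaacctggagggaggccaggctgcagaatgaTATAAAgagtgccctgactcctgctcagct
FLG upstream: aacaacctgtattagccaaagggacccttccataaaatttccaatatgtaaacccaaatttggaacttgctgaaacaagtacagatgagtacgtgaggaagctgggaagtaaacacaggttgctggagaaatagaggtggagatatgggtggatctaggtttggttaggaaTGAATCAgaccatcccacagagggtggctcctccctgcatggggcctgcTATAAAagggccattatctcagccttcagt
SPRR1B upstream: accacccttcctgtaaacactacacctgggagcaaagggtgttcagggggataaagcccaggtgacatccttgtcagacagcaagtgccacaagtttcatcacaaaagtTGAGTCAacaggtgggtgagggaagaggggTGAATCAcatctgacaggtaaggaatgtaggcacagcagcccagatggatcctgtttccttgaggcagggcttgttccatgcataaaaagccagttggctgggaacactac
LCE3A upstream: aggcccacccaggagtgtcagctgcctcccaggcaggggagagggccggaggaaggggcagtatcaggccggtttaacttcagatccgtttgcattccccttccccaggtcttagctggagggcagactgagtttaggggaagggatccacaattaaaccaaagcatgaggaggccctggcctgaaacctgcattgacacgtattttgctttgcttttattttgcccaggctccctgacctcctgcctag

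In SPRR2 genes the AP-1 match lay at nearly the same distance from the TSS: -196 in SPRR2D, -197 in SPRR2A, -195 in SPRR2E and -196 in SPRR2F, with SPRR2G at -180. The 30 bases around each match are shown for comparison (minus strand of chromosome 1, GRCh37). Compared with SPRR2A, the 30 bases were identical at 26 positions in SPRR2F, 22 in SPRR2D, 21 in SPRR2E and 13 in SPRR2G. Each sequence was placed on its own match, so the fixed bases of the motif are identical by construction. No gaps were allowed, so bases shifted by an insertion or loss count as differences. SPRR2B held no match in its 300 bases.
SPRR2D, chr1:153013775-153013804: gcaggttctctgTGACTCAtgagcacttaa
SPRR2A, chr1:153030168-153030197: gcatggcttctgTGAGTCAggagagcttaa
SPRR2E, chr1:153067180-153067209: gcagggcctcagTGAGTCAgggcacttaat
SPRR2F, chr1:153086171-153086200: gcagggcctctgTGAGTCAggagcacttaa
SPRR2G, chr1:153123529-153123558: taatgtcccaagTGAATCActgtgcactta

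**Figure D5:**
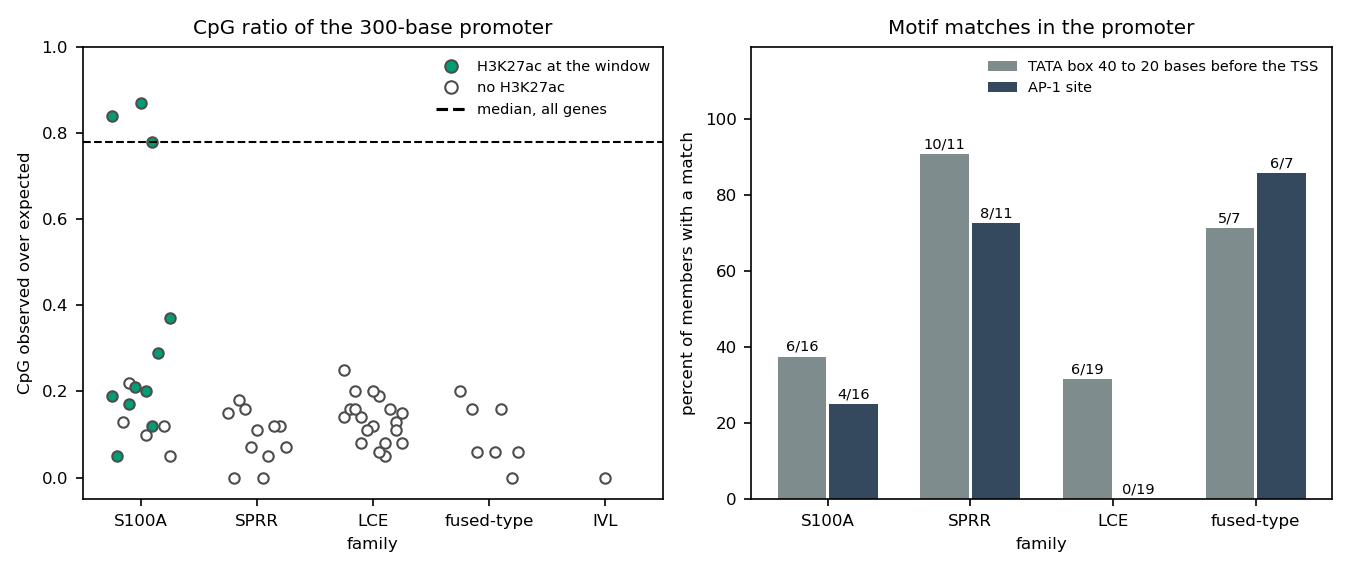
Left, ratio of observed to expected CpG in the 300-base promoter of each gene by family, filled where H3K27ac was at the TSS window, with the median of all protein-coding genes dashed; right, percent of the genes of 4 families with a TATA box 40 to 20 bases before the TSS or an AP-1 match, with counts above the bars. Only 3 S100A genes reach the median of all genes, and AP-1 is found at 8 of 11 SPRR and 0 of 19 LCE promoters.

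Reads that map to more than 1 place are left out of the signal, so near-identical copies can lose peaks. The share of 31-base words of the window found once in the genome had a median of 95.6% over the 43 genes without H3K27ac, 99.0% over the 11 with it and 95.3% over all genes. It was lowest at LCE2C, 63.6%, followed by LCE2B, SPRR2B and S100A7A at 71.2%, 71.9% and 75.3%, and no window fell below 50%.

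Genes that act with the members were read from lists. Of the 9 other protein-coding genes of the complex (LORICRIN, KPRP, PRR9, LELP1, SMCP, PGLYRP3, PGLYRP4, C1orf68 and CRCT1), 0 held H3K27ac, H3K4me3 or Pol II, and KPRP and CRCT1 held H3K4me1. CRCT1 was not in the list and was added after its values were seen. Of 22 cornified envelope and desquamation genes elsewhere, H3K27ac was present at 2, EVPL and ALOXE3, or 9.09% (2.53% to 27.8%), against 61.5% of all genes. Pol II was present at EVPL and CDSN. TGM1, the transglutaminase that cross-links the envelope, and the desmosomal gene DSG1 held none of the 6 lists. Of 23 regulators of epidermal differentiation, 18 held H3K27ac, or 78.3% (58.1% to 90.3%), an interval that includes the 61.5% of all genes, with KLF4, PRDM1, CEBPB, NOTCH1 and AHR among them. ZNF750, OVOL1 and POU2F3 held none of the lists, and GRHL3, a regulator of barrier formation, held H3K4me1 alone. Of 12 partners and receptors of S100 proteins, 11 held H3K27ac, or 91.7% (64.6% to 98.5%), against 61.5% of all genes. Among them were ANXA2, the partner of S100A10, ANXA1, the partner of S100A11, CACYBP and MYH9. AGER and TLR4, receptors for released S100 proteins, also held H3K27ac. At AGER it covered 279 bp without H3K4me3, and TLR4 held no Pol II. CD36 held none. Of the 4 S100 genes on other chromosomes, S100B, S100P, S100G and S100Z, 0 held H3K27ac and S100B held H3K4me1.

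The keratin genes of chromosomes 12 and 17, another pair of clusters of epithelial structural genes, showed similar shares: H3K27ac was present at 7 of 55, or 12.7% (6.30% to 24.0%), and none of the 6 lists at 40, or 72.7% (59.8% to 82.7%). Among 36 claudin and desmosome genes, which build cell junctions, H3K27ac was present at 14, or 38.9% (24.8% to 55.1%), and none of the lists at 17, or 47.2%. The intervals of the 54 genes overlap with those of both, and no difference between the sets was tested.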

How the data were processed

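ChIP-seq had been carried out in MDA-MB-231 cells with 6 antibodies. Of 13 samples, 11 lie behind the lists used; the 2 inputs were not analysed here. According to the methods, the authors aligned reads to hg19 with BWA-backtrack (the submitters' processing notes name Bowtie2), made a signal in 50-bp bins with PASHA, merged replicates and thresholded the signal into peaks. The deposited lists hold positions in bp only. Threshold, shortest run and widest joined gap differed: 30, 250 bp and 1000 bp for H3K4me1, 50, 150 bp and 500 bp for H3K27ac, 30, 150 bp and 500 bp for H3K4me3, 50, 100 bp and 800 bp for Pol II, 60, 50 bp and 50 bp for p300/CBP, and 50, 50 bp and 50 bp for CTCF. File labels give scaling and background subtraction for the histone marks and p300/CBP, scaling alone for Pol II and neither for CTCF, so coverage is not compared between lists. Depth is unknown.

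Positions were compared with Python 3.11.15 and NumPy 2.4.6, sequences read from GRCh37 with pyfaidx 0.9.0.4, words counted with numba 0.67.0 and figures drawn with matplotlib 3.10.9. Peak edges all lie 1 base beyond multiples of 50, and each end was read as the first base outside its peak. The 13 mitochondrial genes were left out. Motifs were searched on both strands, the TATA box on the strand of the gene; promoters with undetermined bases were left out, which left 19862. Overlap, interval, motif and word functions were checked on simulated data (0 errors in 21878 checks). With 1 condition, merged replicates and positions only, no test was made. Shares have 95% Wilson intervals. Each gene with a peak was named with its values and the others by family, with each cAE and p300/CBP peak of the complex. Genes and lists were chosen with earlier results of these data known.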

Additional observations from a re-analysis of the deposited data

How the results depend on the processing

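Over 15 counts and 61 alternatives, 48 stayed within 1.5 times the reported count and 13 did not. The counts of genes with H3K4me1, H3K27ac, H3K4me3 or Pol II, and with none of the 6 lists, stayed within it under all 5 alternatives each, but the genes changed: in 10 kb windows TCHH gained H3K27ac, H3K4me3 and Pol II and RPTN gained H3K27ac. Genes with p300/CBP went from 1 to 0 in 1 kb windows and when at least 500 bp had to be covered, and to 2 in 10 kb windows. Genes with CTCF went from 3 to 1, 0 and 11 under the same 3 settings. No p300/CBP or CTCF peak at these windows was 500 bp wide, so both values of 0 under that setting follow from its construction. The cAEs went from 21 to 7 when 50% had to be covered by H3K27ac. When peaks narrower than their list's median were dropped, counts went to 10 cAEs, 16 cIEs, 35 H3K4me1, 14 H3K27ac and 9 H3K4me3 peaks. With 100 kb added on both sides, Pol II peaks went from 16 to 27. No paired analysis was possible because replicates were merged before peaks were called, and for that reason no replicate could be left out. A stricter signal threshold could not be applied to positions. Dropping the narrower peaks removed H3K27ac at S100A14, H3K4me3 at S100A2, Pol II at S100A5 and H3K4me1 at IVL, LCE1F, SPRR3 and SPRR2A.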
